A study of Mus musculus with 3 samples.

Results

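The 10 core circadian clock genes Per1, Per2, Per3, Cry1, Cry2, Arntl, Clock, Nr1d1, Nr1d2 and Dbp were taken from the 32285 genes of the count tables by their symbols, and all 10 were found. They were followed through single-cell RNA-seq of full-thickness dorsal skin from C57BL/6J mice, labelled female and kept under a 12-h light/dark cycle. The mice were purchased at 8 weeks of age, before the course of irradiation, and their age at collection was not stated. CON skin was not irradiated, UV skin was exposed on alternate days over 12 weeks, to UVB (3.5 mW/cm2) as well as UVA (0.60 mW/cm2), and Rux skin received the same irradiation followed each time by an ointment with 1.5% ruxolitinib, an inhibitor of the kinases JAK1 and JAK2. The study describes CON and UV as vehicle groups, without the drug. Each condition was 1 library, and the number of mice behind a library was not stated. The skin was excised 24 h after the last exposure, but the clock time of collection was not given for any group, so condition and time of day cannot be told apart in any comparison of clock genes between libraries.

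The clock is a feedback loop in which the transcription factors ARNTL (also called BMAL1) and CLOCK pair, bind E-box sequences and activate the Per and Cry genes, whose proteins in turn repress ARNTL and CLOCK. A second loop runs through the nuclear receptors encoded by Nr1d1 and Nr1d2 (REV-ERBα and REV-ERBβ), which repress Arntl from ROR elements, while Dbp, a direct E-box target, encodes a PAR bZIP factor that acts on D-boxes. In tissues with a running clock the Dbp and Nr1d1 transcripts peak close to the trough of Arntl, so that their balance moves with the time of day, and Per1 also responds within minutes to hours to cAMP, stress and glucocorticoid signals.

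The members lie on separate parts of the genome (GRCm38, GENCODE M21). Arntl spans chr7:113207465-113314126 and Dbp chr7:45705088-45710203, both on the plus strand. Per1 spans chr11:69095217-69109960 on the plus strand and Nr1d1 chr11:98767932-98775333 on the minus strand. The other 6 members are on the minus strand, Per2 at chr1:91415982-91459324, Per3 at chr4:151003652-151044665, Cry1 at chr10:85131700-85185064, Cry2 at chr2:92403646-92434043, Clock at chr5:76209868-76304792 and Nr1d2 at chr14:18204054-18239127.

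The regulatory letters of this loop were searched on both strands in the RefSeq promoter windows of GRCm38.p6, which run from 250 bases before to 50 bases after each start. Of the 10 members, 9 had a window and Per2 had none. The E-box CACGTG occurred in 7.15% of the 32851 windows of all genes, the variant CACGTT in 4.68%, the D-box TTATGTAA in 0.94% and the core of the ROR element, TAGGTCA, in 2.61%. Of the 9 members, 6 held at least 1 of these, and Clock, Nr1d2 and Dbp held none within these windows. Clock had 3 windows and Per1 and Arntl had 2 each. The share of all genes with at least 1 of these letters was not computed, so the 6 have no matching background. The stretches are shown because they are the letters through which the members are known to read each other. They are written 5′ to 3′ on the gene's own strand with the match in capitals, and a variant that lies on the opposite strand reads AACGTG.
Per1, E-box 166 bases before the start, chr11:69098772-69098799: gcacccaagtcCACGTGcagggatgtgt
Cry1, E-box 60 bases before the start, chr10:85185098-85185125: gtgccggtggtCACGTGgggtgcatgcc
Cry1, variant 79 bases before the start, chr10:85185117-85185144: cacacttcagaAACGTGaggtgccggtg
Cry2, variant 166 bases before the start, chr2:92434219-92434246: cacatggtgggAACGTGagggggcggag
Nr1d1, variant 28 bases before the start, chr11:98775389-98775416: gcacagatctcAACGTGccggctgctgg
Per3, D-box 205 bases before the start, chr4:151044852-151044881: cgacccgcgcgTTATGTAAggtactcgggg
Per3, D-box 158 bases before the start, chr4:151044805-151044834: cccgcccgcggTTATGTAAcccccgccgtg
Arntl, ROR core at base 31 of the transcript, chr7:113207530-113207558: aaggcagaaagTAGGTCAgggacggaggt

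A match is a description of these letters and not a measured binding site. Per1 had 2 windows with 1 match between them, and that match lies before a start inside the gene span given above. None of the matches printed overlaps another in the same window.

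A UMI is the tag of 1 captured mRNA molecule, and levels are given as CPM, the UMIs of a gene scaled to the same total after division by the UMI sum of a cell class in a library. After filtering, 10777, 10231 and 9299 cells were kept in CON, UV and Rux, and clusters were named from marker genes. The fibroblast class (FB-like) summed to 23849820, 39533490 and 56469101 UMIs, and the class named from the basal keratinocyte markers (KB-like) to 32744155, 14757767 and 15277951. The libraries shared 28 to 50 cell barcodes in pairs. Against the label of female mice, the Y-linked gene Ddx3y stood at 110 to 121 CPM and Xist at 0.0923 to 0.121 CPM in the 3 libraries. With 1 library per condition no test across samples was possible and no p was computed. Intervals are 95% counting intervals, and they hold no spread between mice or between library preparations. A gene was counted as higher or lower when its ratio was at least 1.5-fold, its interval lay on that side of no change and its mean was at least 10 CPM.

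In FB-like cells the activator Arntl was 3.06-fold higher in UV than in CON, while Per1 and Nr1d1 were lower, and in Rux Arntl stayed near its UV level while Per1 and Per2 were higher than in UV. Of the 10 members, 1 passed the 1.5-fold rule upward in UV over CON (Arntl), against 6.16% of the 8393 genes tested. Downward 2 passed (Per1 and Nr1d1), against 8.22% of genes. In Rux over UV 2 members passed upward (Per1 and Per2), against 3.24% of 8171 genes, and 0 passed downward, against 5.12%. In Rux over CON, Per2 and Arntl were higher, against 7.06% of 8356 genes, and Dbp was lower, against 10.1%. The median log2 ratio of the members was −0.32 in UV over CON and 0.18 in Rux over UV, beside −0.11 and 0.03 over all genes tested. The shift of −0.11 over all genes in UV over CON was seen with scaling to the total. Median-of-ratios scaling centres this median near no change by construction, so its value of 0.001 does not tell where the shift came from.

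**Figure D1:**
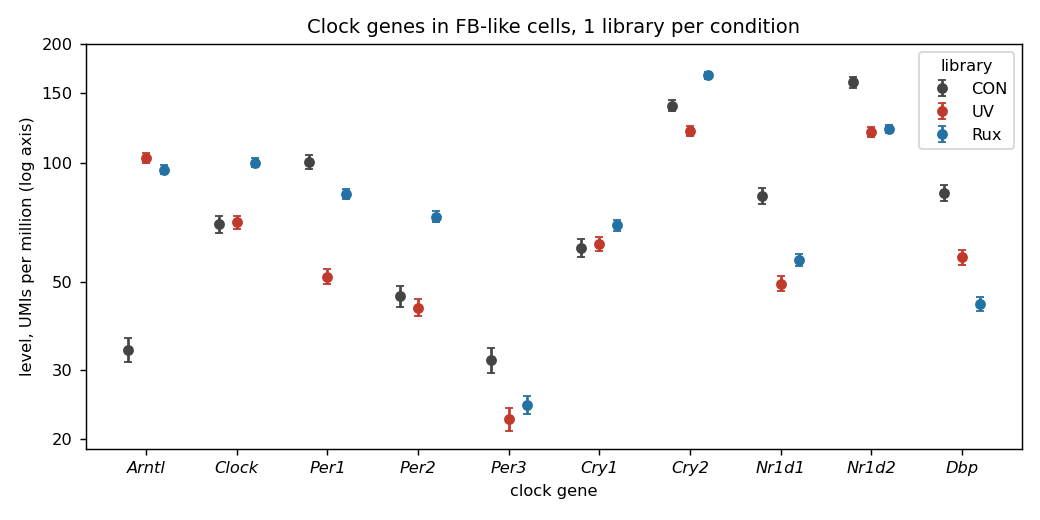
Level of each clock gene in FB-like cells (CPM, log axis) in the CON, UV and Rux libraries, with 95% Poisson counting intervals of 1 library each. Arntl stood at 33.6 in CON and at 102.9 in UV and 96.1 in Rux, Per1 was lowest in UV, Per2 was highest in Rux, and Dbp stepped down from CON to UV to Rux.

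Arntl, the activator whose transcript defines one pole of the cycle, stood at 33.6 CPM in CON (802 UMIs), 102.9 CPM in UV (4068 UMIs) and 96.1 CPM in Rux (5428 UMIs). CON was the low library and the intervals of UV and CON were far apart, with a log2 ratio of 1.61 (1.50 to 1.72). The UV and Rux libraries lay within 1.5-fold of each other, at a log2 ratio of −0.10 (−0.16 to −0.04). The ratio of UV over CON moved with the shares of the fibroblast subclusters. These were clustered from the same libraries, and whether a share reflects a kind of fibroblast or its state was not tested. With the fibroblast subclusters weighted as in CON, the log2 ratio of UV over CON was 0.75, and that of Rux over CON was 0.86 in place of 1.51. In this weighting the subcluster led by Socs3 and Egr1 took 33.6% of the weight with 20 cells in Rux, so weighted values of Rux rest heavily on those cells. With only the 9 subclusters of at least 50 cells in each library, weighted in the same way, the Arntl ratios were 0.67 in UV over CON and 1.00 in Rux over CON. The direction of the small difference between Rux and UV turned in both weightings, to 0.11 and 0.33.

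Clock, the DNA-binding partner of ARNTL, did not follow it. Its level was 69.9 CPM in CON, 70.9 CPM in UV and 100 CPM in Rux. CON and UV could not be told apart at this depth (log2 ratio 0.02, −0.07 to 0.11), and Rux lay above UV by 0.50 (0.43 to 0.56), which is under the 1.5-fold bound. Weighted as in CON it was 0.65 in Rux over UV and 0.73 in Rux over CON, both past the bound, and with the 9 subclusters alone 0.52 and 0.50, both under it.

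The 3 Per genes, which encode the repressors that accumulate and then close the loop, differed from each other. Per1 stood at 100.8 CPM in CON, 51.6 CPM in UV and 83.7 CPM in Rux, so that UV was the low library. Its log2 ratio was −0.97 (−1.05 to −0.88) in UV over CON and 0.70 (0.62 to 0.77) in Rux over UV. Weighted as in CON the first was −0.46 and under the bound, and with the 9 subclusters alone it was −0.63 and past it. Per2 stood at 46.0, 43.1 and 73.2 CPM, and only the Rux library stood apart, by 0.76 (0.68 to 0.85) over UV. Per3 stood at 31.7, 22.5 and 24.4 CPM, with CON the highest, and its ratio of UV over CON of −0.50 (−0.64 to −0.35) did not reach 1.5-fold.

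The Cry genes, which encode the other repressor pair, stayed under the bound. Cry1 stood at 61.0, 62.5 and 69.6 CPM in CON, UV and Rux. Cry2 stood at 139.7, 120.4 and 166.9 CPM, with Rux the highest at a log2 ratio over UV of 0.47 (0.42 to 0.52). Over all FB-like cells no Cry ratio reached 1.5-fold between any pair of libraries. Weighted as in CON, Cry2 passed the bound in Rux over UV, at 0.77, and with the 9 subclusters alone at 0.72.

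Of the repressors of Arntl, Nr1d1 was lower in UV than in CON and Nr1d2 did not reach the bound. Nr1d1 stood at 82.6 CPM in CON, 49.6 CPM in UV and 56.8 CPM in Rux, with a log2 ratio of −0.74 (−0.83 to −0.65) in UV over CON. Nr1d2 stood at 160, 120 and 122 CPM, a log2 ratio of −0.42 (−0.48 to −0.35) in UV over CON. With the subclusters weighted as in CON the value of Nr1d1 was −0.35 and that of Nr1d2 was −0.09.

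Dbp, an output gene with a wide daily swing in many tissues, stood at 84.0 CPM in CON, 57.7 CPM in UV and 44.0 CPM in Rux. The order was CON, UV, Rux with separate intervals at each step. The log2 ratio was −0.54 (−0.63 to −0.46) in UV over CON and −0.39 (−0.47 to −0.31) in Rux over UV, and only Rux over CON passed the rule, at −0.93 (−1.02 to −0.85). With the subclusters weighted as in CON the ratio of UV over CON was −0.04 and that of Rux over CON was −0.29, so that no member passed the rule downward in UV over CON or in Rux over CON, and 4 (Per1, Per2, Cry2 and Clock) passed it upward in Rux over UV. With the 9 subclusters alone, Per1 passed downward in UV over CON, 0 passed downward in Rux over CON, and 3 (Per1, Per2 and Cry2) passed upward in Rux over UV.

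The balance of Dbp and Arntl within a library needs no scaling between libraries. In FB-like cells the log2 of Dbp UMIs over Arntl UMIs was 1.32 (1.20 to 1.44) in CON, −0.83 (−0.91 to −0.76) in UV and −1.13 (−1.20 to −1.06) in Rux. CON was the sole library in which Dbp exceeded Arntl. The difference of UV from CON was −2.16 (−2.30 to −2.01) and that of Rux from UV was −0.29 (−0.39 to −0.19). Weighting the subclusters as in CON reduced the first to −0.79, and to −0.70 with the 9 subclusters alone, where the second was −0.59. Over all retained cells, with unnamed clusters included, the values were 0.02 in CON, −0.87 in UV and −1.25 in Rux. FB-like cells made up 31.6%, 50.2% and 54.3% of these cells, so class shares enter the pooled values.

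A wider contrast set the mean log2 level of 8 genes that peak with Dbp (Nr1d1, Nr1d2, Dbp, Tef, Hlf, Ciart, Per3 and Bhlhe41) against that of 4 genes of the opposite pole (Arntl, Clock, Npas2 and Nfil3). In FB-like cells it was 0.26 in CON, −0.59 in UV and −0.81 in Rux, a step of −0.85 and then of −0.22. Weighted as in CON the first step was −0.38. The genes of the opposite pole did not move together in FB-like cells. Their log2 ratios in UV over CON were 1.61 for Arntl, 0.02 for Clock, 0.22 for Npas2 and −0.99 for Nfil3. In KB-like cells the contrast was −0.56, −0.96 and −0.93, with a first step of −0.40. Among the genes that peak with Dbp, the log2 ratio of UV over CON there was 1.25 for Bhlhe41 and −0.86 for Hlf. The contrast also stepped down from CON to UV in HF-like (−0.54), VEC-like (−0.46) and MYE-like cells (−0.20). In the other 4 classes with enough UMIs, UV minus CON was −0.03 in the Ccl21a cluster, 0.01 in PCY-like, 0.02 in LYM-like and 0.47 in SCH-like cells. Genes with fewer than 10 UMIs in any library of a class were left out there, so these values do not all rest on the same genes. The Ccl21a cluster, PCY-like and SCH-like cells kept 7 of the 8 and 3 of the 4 genes. LYM-like and MYE-like cells kept 5 of the 8 and 3 of the 4.

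**Figure D2:**
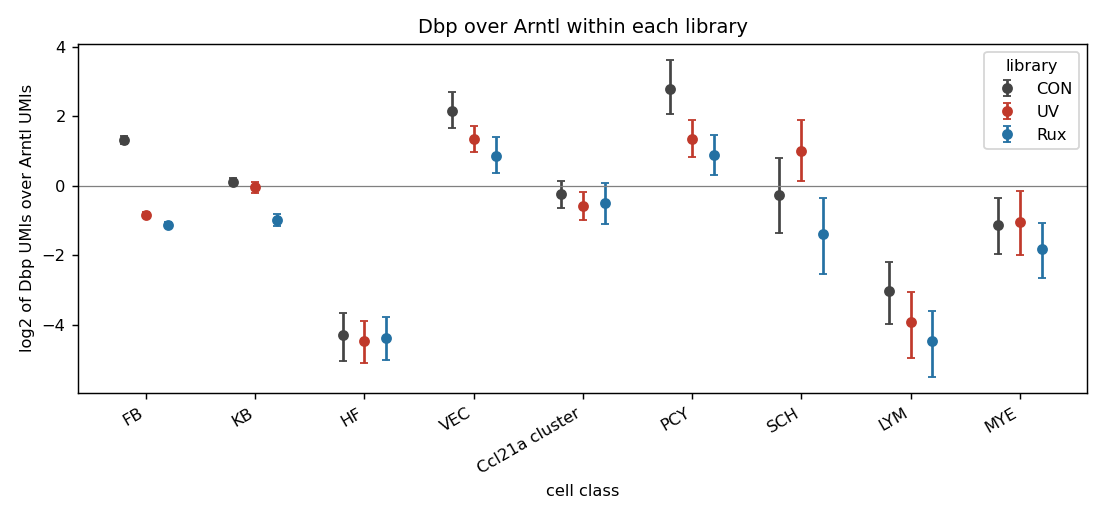
Log2 of summed Dbp UMIs over summed Arntl UMIs in 9 cell classes (horizontal axis) in the CON, UV and Rux libraries, with exact 95% counting intervals of 1 library each. The FB-like, VEC-like and PCY-like classes stepped down from CON to UV, the KB-like class stepped down between UV and Rux, and the HF-like class lay between −4.31 and −4.47 in all 3.

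In KB-like cells no member passed the 1.5-fold rule between CON and UV or between UV and Rux, and Dbp over Arntl was lower in Rux than in UV. Upward, 0 of 10 members passed the 1.5-fold rule in UV over CON, against 6.19% of 8876 genes, and downward 0 passed, against 4.84%. In Rux over UV 0 members passed in either direction, against 2.8% of genes upward and 4.7% downward. In Rux over CON only Arntl passed, upward, against 8.55% of genes, and 0 passed downward, against 10.8%.

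Arntl stood at 36.9 CPM in CON, 42.8 CPM in UV and 56.0 CPM in Rux in KB-like cells, with a log2 ratio of 0.60 (0.48 to 0.73) in Rux over CON. Dbp stood at 39.5, 41.2 and 28.2 CPM, and Rux was the low library, at −0.55 (−0.73 to −0.37) against UV. The log2 of Dbp over Arntl was 0.10 in CON, −0.05 in UV and −0.99 in Rux. The difference of UV from CON was −0.15 (−0.35 to 0.05), an interval apart from that of FB-like cells, and it turned to 0.25 at a clustering resolution of 0.8 and to 0.54 without doublet removal. That of Rux from UV was −0.94 (−1.17 to −0.70).

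The KB-like class held its clusters in different shares in each library, and some of them were led by genes of the hair follicle. The cluster led by Gm973 and Pi15 also had Lhx2 and Lgr5, known from hair follicle stem cells, among its leading genes, and that led by Defb6 and Cst6 had Krt79, known from the upper follicle. They held 227 and 242 of the 712 KB-like cells in UV. The cluster led by Pthlh and Wfdc18 had Sox9, Barx2 and Krt6a among its leading genes. It held 62 cells in CON, 94 in UV and 183 in Rux. The cluster led by Fcgbp, Col17a1 and Il20ra had 468 cells in CON, 16 in UV and 73 in Rux. Among the 4 KB-like clusters with at least 50 cells in each library, the difference of Rux from UV was −0.70 in the cluster led by Gm973 and Pi15, −1.08 in that led by Defb6 and Cst6 and −1.31 in that led by Pthlh and Wfdc18. Each of these 3 intervals lay below 0. In the fourth, led by Krt14 and Fcgbp, it was 0.29 (−0.27 to 0.86). The difference of UV from CON was 0.63 (0.26 to 0.99) in the cluster led by Gm973 and Pi15, above 0 where the class value was −0.15, and in the other 3 clusters the interval held 0.

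Over 10 classes with at least 50 cells in each library, Per1 was the one member with a single direction in Rux over UV. It was lower in UV than in CON in 8 classes, MC-like cells with 8 UMIs in CON among them, and 22.2% of the 4964 genes with at least 10 CPM in every class were lower in at least 8. It was higher in Rux than in UV in all 10 classes, which held for 1.49% of those genes. The counting interval excluded no change in 4 of the 8 (FB-like, HF-like, MYE-like and the cluster led by Ccl21a) and in 7 of the 10. Per1 levels in UV and Rux were 35.8 and 43.5 CPM in HF-like cells of the hair follicle, 74.7 and 101 CPM in VEC-like vascular endothelium and 110 and 145 CPM in PCY-like pericytes. They were 116 and 186 CPM in SCH-like Schwann cells and 44.1 and 78.9 CPM in the cluster led by Ccl21a, which lay between the lymphatic and vascular markers and was left unnamed.

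Cry1 was higher in UV than in CON in 9 of the 10 classes, with an interval above no change in 2, and 2.96% of genes were higher in at least 9.

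Arntl was higher in UV than in CON in 6 of the 10 classes, each with an interval above no change, and 29.5% of genes were higher in at least 6. The 6 were the FB-like, KB-like, VEC-like, PCY-like and LYM-like classes and the Ccl21a cluster. In PCY-like cells it stood at 13.3, 27.2 and 42.3 CPM in CON, UV and Rux (17, 44 and 40 UMIs), so that CON was the lowest. In VEC-like cells it stood at 15.4, 26.3 and 36.2 CPM, again lowest in CON. In LYM-like T cells it stood at 67.3, 112 and 110 CPM (106, 168 and 247 UMIs). As a point value this was the highest among the 10 classes in all 3 libraries. Next were HF-like cells in CON, at 52.5 CPM, and FB-like cells in UV and Rux, at 103 and 96.1 CPM. In HF-like cells Arntl was at 52.5, 50.6 and 44.7 CPM, and in MYE-like myeloid cells at 22.6, 16.1 and 16.9 CPM, both without a higher value in UV.

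**Figure D3:**
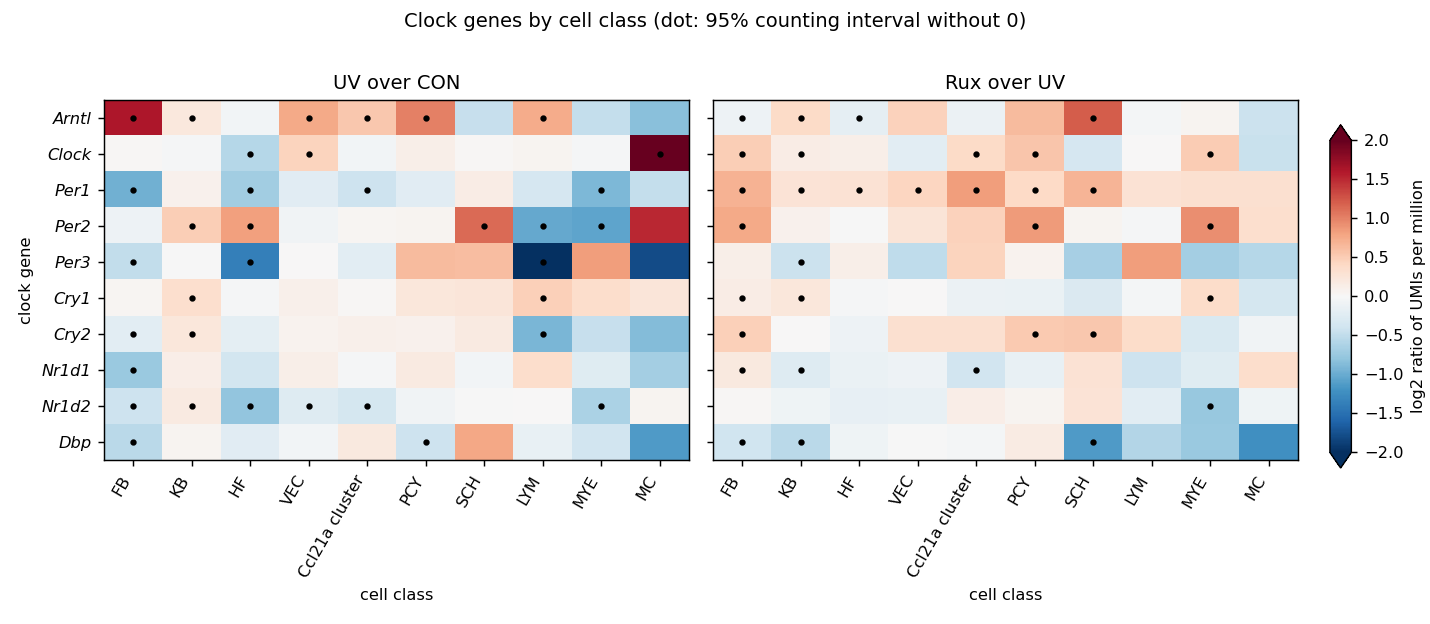
Log2 ratio of CPM for each clock gene (rows) in 10 cell classes (columns), UV over CON on the left and Rux over UV on the right, on a colour scale from −2 to 2, with a dot where the 95% counting interval excludes 0. The Arntl row is red on the left in 6 classes, and the Per1 row is red on the right in all 10.

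The order of classes by Arntl in CON ran from PCY-like (13.3 CPM) through VEC-like and the Ccl21a cluster to HF-like (52.5 CPM) and LYM-like (67.3 CPM). Of the 9 steps between neighbours in that order, 1 had intervals that did not overlap. FB-like cells, with 33.6 CPM in CON, were next to the top in UV and in Rux.

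Dbp had a wide range over the 10 classes within a library. In CON it was lowest in HF-like cells, at 2.64 CPM (20 UMIs), and highest in PCY-like cells, at 92.5 CPM, with FB-like cells next at 84.0 CPM. HF-like cells were also the lowest for Dbp in UV and Rux, at 2.28 and 2.15 CPM, and for Nr1d1 in all 3 libraries, at 9.38, 7.27 and 6.64 CPM. Their log2 of Dbp over Arntl lay between −4.31 and −4.47, and no difference between the libraries was detectable at 20 to 26 Dbp UMIs. LYM-like cells, with 11 to 13 Dbp UMIs, were also low, at 8.26, 7.36 and 4.90 CPM.

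In VEC-like cells the log2 of Dbp over Arntl went from 2.15 in CON to 1.33 in UV and 0.86 in Rux, with a difference of UV from CON of −0.82 (−1.47 to −0.18). In PCY-like cells it went from 2.80 to 1.35 and 0.87, with a difference of −1.45 (−2.43 to −0.51). The wider contrast of UV minus CON was 0.01 there, from 7 of the 8 and 3 of the 4 genes. In both classes Dbp itself was within 1.5-fold between the libraries, at 68.6, 66.4 and 65.9 CPM in VEC-like cells and 92.5, 69.1 and 77.2 CPM in PCY-like cells. The Dbp interval of UV over CON lay below no change in PCY-like cells and not in VEC-like cells. In SCH-like cells the order differed. The value was −0.26 in CON, 1.00 in UV and −1.40 in Rux from 11 to 36 UMIs of either gene, and only the step from UV to Rux had an interval below 0, at −2.40 (−3.84 to −0.99).

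The Per2 interval of UV over CON lay above no change in KB-like, HF-like and SCH-like cells and below it in LYM-like and MYE-like cells. Per2 in CON and UV stood at 4.49 and 7.98 CPM in HF-like cells, under the 10 CPM bound. It stood at 24.9 and 56.1 CPM in SCH-like cells (10 and 31 UMIs), 22.2 and 10.7 CPM in LYM-like cells and 14.4 and 6.84 CPM in MYE-like cells. Per3 was lower in UV in LYM-like cells, with 17.8 CPM and 4.01 CPM for CON and UV (28 and 6 UMIs). Nr1d2, the second REV-ERB, was lower in UV than in CON in HF-like cells, at 42.7 and 24.7 CPM, and went from 60.7 to 39.1 and 23.1 CPM over CON, UV and Rux in MYE-like cells. Among the 10 classes Clock had its highest point value in the Ccl21a cluster in all 3 libraries, at 127, 122 and 159 CPM. SCH-like cells were next in CON and UV, at 117 and 120 CPM, with intervals that held the levels of the Ccl21a cluster. In MC-like mast cells the class summed to 87353 UMIs in CON and the members to 1 to 8 UMIs each, so its values against CON, which enter the counts over 10 classes, rest on very few UMIs.

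The classes with fewer than 50 cells in some library are given by their values alone. In KS-like suprabasal keratinocytes (267, 23 and 42 cells) Arntl stood at 30.1, 38.1 and 49.5 CPM and Per1 at 82.1, 49.3 and 62.7 CPM in CON, UV and Rux. In MEL-like melanocytes Arntl stood at 21.3, 26.3 and 60.2 CPM and Dbp at 11.9, 15.8 and 21.5 CPM. In MP-like muscle progenitors Arntl went from 91.9 to 70.8 and 30.3 CPM (47, 13 and 3 UMIs) and Dbp from 35.2 to 104 and 101 CPM (18, 19 and 10 UMIs). SKM-like muscle cells held 6, 0 and 4 Arntl UMIs and 40, 6 and 12 Dbp UMIs. In NEU-like neutrophils Arntl had 0, 0 and 3 UMIs and Dbp 1, 0 and 0 UMIs, while Per1 had 11, 2 and 65. In ERY-like red blood cells, which should hold little mRNA of their own, each member had 0 to 7 UMIs, and the SG-like sebaceous class had 1 cell in Rux.

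The FB-like cells were clustered again without clock genes into 13 subclusters, of which 9 held at least 50 cells in each library. Their shares differed between libraries. Subcluster 3, led by Socs3, Gadd45g and Zfp36, held 33.5% of the FB-like cells in CON, 6.56% in UV and 0.396% in Rux. Subcluster 4, led by Dtna, Limch1 and Bmp8a, held 1.15% in CON, 18.4% in UV and 7.19% in Rux. Arntl stood at 239 CPM in UV and 163 CPM in Rux in subcluster 4, and at 15.0 CPM in CON and 29.2 CPM in UV in subcluster 3. Dbp ran the other way, at 16.4 and 23.4 CPM in subcluster 4 and at 111 and 105 CPM in subcluster 3. Without subcluster 3 the log2 ratio of Arntl in UV over CON was 1.33, and the difference of Dbp over Arntl was −1.71. Subcluster 4 held 2098 of the 4068 Arntl UMIs of FB-like cells in UV and 743 of the 5428 in Rux. The ratio without subcluster 4 alone was not computed. With the 9 subclusters weighted as in CON, which leave out both 3 and 4, the Arntl ratio of UV over CON was 0.67.

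**Figure D4:**
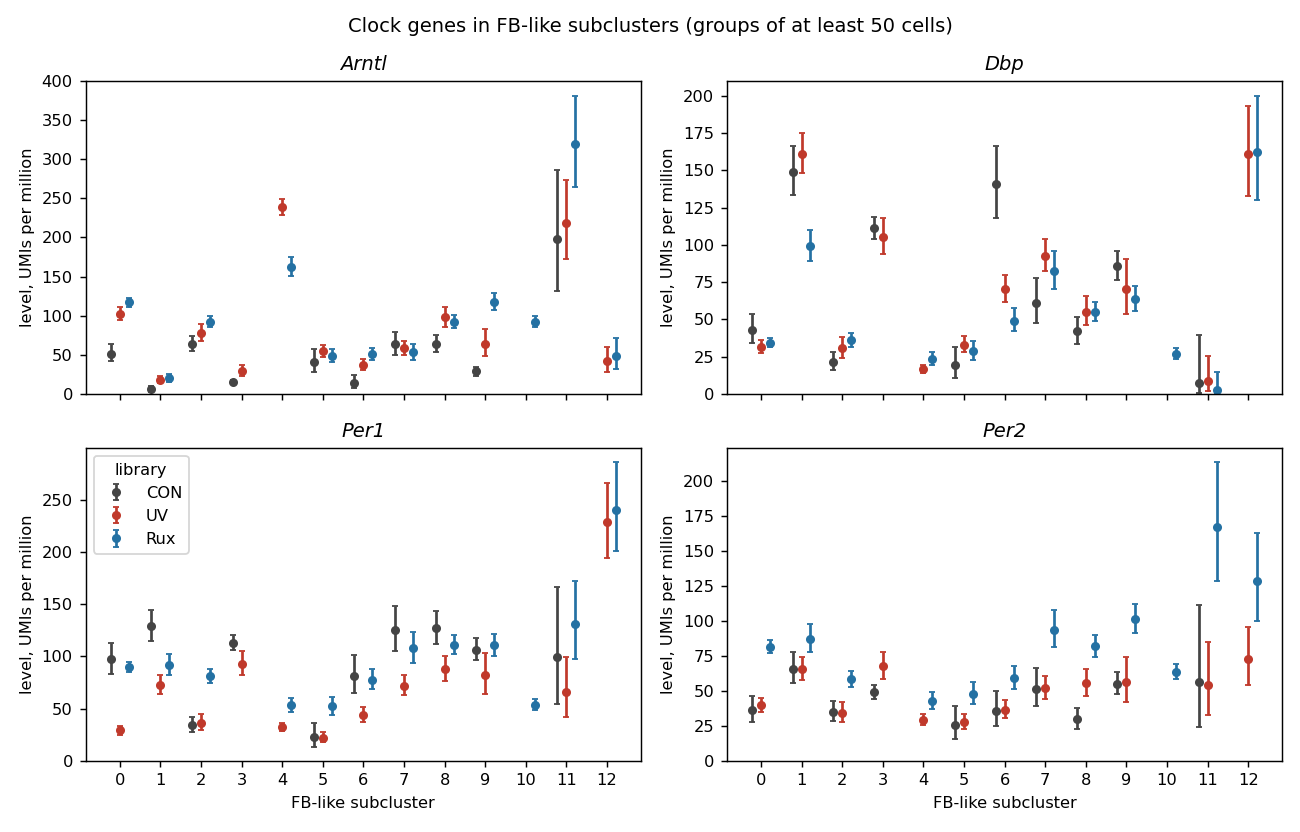
Level (CPM) of Arntl, Dbp, Per1 and Per2 in the FB-like subclusters (horizontal axis) in the CON, UV and Rux libraries, with 95% Poisson counting intervals, for each library with at least 50 cells of a subcluster. Arntl reached 319 in Rux in subcluster 11, and Per2 was higher in Rux than in UV in all 9 subclusters held by the 3 libraries.

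Within the 9 subclusters Arntl was higher in UV than in CON in 8, with an interval above no change in 5 and a median log2 ratio of 0.63. Of the 5750 genes with at least 10 CPM in each of the 9, 8.75% were higher in at least 8. The values ran from −0.12 in subcluster 7, led by Rasgef1c, to 1.67 in subcluster 1, led by Plcxd3 and Kcnab1, where the level went from 5.42 to 17.9 CPM. In subcluster 9, led by Grem1 and Igfbp2, Arntl stood at 28.5, 63.3 and 118 CPM in CON, UV and Rux. Among the 9, subcluster 11, led by Gm17268, had the highest levels, at 198, 218 and 319 CPM.

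Dbp had no common direction over the subclusters. It was higher in UV than in CON in 5 of 9 and lower in 4, with a median log2 ratio of 0.11. In subcluster 6, led by Ecrg4 and Clu, it went from 141 CPM in CON to 70.3 CPM in UV and 49.1 CPM in Rux. In subcluster 7 it went from 61.2 to 92.8 and 82.2 CPM. The log2 of Dbp over Arntl was lower in UV than in CON, with an interval below 0, in subclusters 0, 1, 6 and 9, at −1.45, −1.61, −2.37 and −1.44, and it was higher, with an interval above 0, in subcluster 7, at 0.71.

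Per1 and Per2 were higher in Rux than in UV in all 9 subclusters, with all intervals above no change, which held for 0.713% of the 5750 genes. For Per1 the log2 ratio ran from 0.33 to 1.62 with a median of 0.83, and for Per2 from 0.41 to 1.59 with a median of 0.78. Cry2 was also higher in Rux than in UV in all 9, with 8 intervals above no change and a median of 0.47, and 6.94% of genes were higher in all 9. Clock was higher in 8 of 9, with a median of 0.66, and 17.1% of genes were higher in at least 8. In UV over CON Per1 was lower in 8 of 9, with 6 intervals below no change, and 15.7% of genes were lower in at least 8. In subcluster 0, led by Myo16 and Lpl, it stood at 97.2, 29.1 and 89.7 CPM in CON, UV and Rux. Nr1d1 was mixed, from −1.58 in subcluster 6 to 0.41 in subcluster 2 in UV over CON.

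Of the 29 other clock-related genes, which cover further activators, output factors, kinases and ubiquitin ligases, 24 had at least 10 CPM in FB-like cells. In UV over CON 0 of the 24 passed upward and 4 downward (Bhlhe40, Bhlhe41, Nfil3 and Usp2), against 6.16% and 8.22% of all genes tested. In Rux over UV 2 passed upward (Usp2 and Wee1) and 1 downward (Rorb), against 3.24% and 5.12%. In Rux over CON 0 passed upward and 6 downward (Bhlhe40, Bhlhe41, Rorb, Nfil3, Tef and Sirt1), against 7.06% and 10.1%. Their median log2 ratio was 0.02 in UV over CON and −0.03 in Rux over UV.

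Bhlhe41, a repressor of E-box genes also called DEC2, stood at 36.3, 17.6 and 13.7 CPM in CON, UV and Rux in FB-like cells, with a ratio of UV over CON of −1.04 (−1.19 to −0.90). Its relative Bhlhe40 stood at 586, 327 and 364 CPM. Nfil3, a D-box repressor that opposes Dbp, stood at 125, 63.0 and 53.0 CPM, lower where Arntl was higher. Tef, a PAR bZIP factor like Dbp, stood at 81.0, 60.3 and 52.2 CPM. Usp2, a deubiquitinase with rhythmic expression, stood at 72.2, 33.7 and 52.3 CPM, low in UV as Per1 was. Wee1, a cell cycle kinase under E-box control, stood at 62.9, 46.9 and 87.2 CPM, and Rorb, an activator at ROR elements, at 28.9, 42 and 14.2 CPM. Sirt1, a deacetylase that acts on clock proteins, stood at 81.1, 57.8 and 53.1 CPM.

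Many genes that respond to acute signals also passed the 1.5-fold rule downward in UV over CON in FB-like cells. In KB-like cells none did. Of 23 immediate-early genes, 15 were lower in UV than in CON in FB-like cells, 0 were higher and the median log2 ratio was −0.91, against 8.22% and 6.16% of all genes tested. In Rux over UV 4 were higher and 0 lower, against 3.24% and 5.12%. Their summed level was 25434 CPM in CON, 14051 CPM in UV and 15494 CPM in Rux. Subcluster 3, which Zfp36, Egr1 and Cebpd help to define, held 33.5% of FB-like cells in CON and 6.56% in UV. Its sum was 41561 CPM in CON and 36268 CPM in UV. The sum was also lower in UV than in CON in subclusters 0, 2, 5, 6, 7, 9 and 11. It went from 18011 to 10233 CPM in subcluster 0 and from 11148 to 9781 CPM in subcluster 5. In subclusters 1 and 8 the sum was higher in UV than in CON, at 11758 and 13891 CPM and at 11808 and 12501 CPM. The 3 with the largest ratios in UV over CON were Nr4a2 (−1.82), Egr1 (−1.51) and Zfp36 (−1.43), and in Rux over UV Nr4a1 (0.98), Egr3 (0.98) and Nr4a2 (0.82). In KB-like cells, where Per1 stood at 82.2, 87.3 and 105 CPM, 4 immediate-early genes were higher and 0 lower in UV over CON, against 6.19% and 4.84% of all genes, and the sum of the list was 12173, 16467 and 14434 CPM. Among the other classes the sum was lower in UV than in CON in HF-like (8872 and 6413 CPM) and PCY-like cells (24435 and 16856 CPM). The same held in VEC-like, LYM-like, MYE-like and MC-like cells and the Ccl21a cluster. In SCH-like cells it was higher, at 18341 and 19797 CPM. Per1 had the direction of the sum in each of these classes. From UV to Rux the sum fell in KB-like and HF-like cells, where Per1 rose. Immediate-early genes are also known to respond to tissue dissociation, whose part in the result was not tested.

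Of 11 glucocorticoid-responsive genes, 9 could be compared in FB-like cells. In UV over CON 3 were lower and 0 higher, against 8.22% and 6.16% of all genes tested. In Rux over UV 2 were higher and 3 lower, against 3.24% and 5.12%. The 3 with the largest ratios in UV over CON were Cebpd (−1.18), Arrdc2 (−0.87) and Mt1 (−0.79), and in Rux over UV Pdk4 (1.05), Sgk1 (1.03) and Mt2 (−0.93). Arrdc2 and Pdk4 were the 2 genes under the 10 CPM bound in FB-like cells, so their ratios are not calls. Tsc22d3, which encodes the glucocorticoid-induced leucine zipper, was lowest in UV, as Per1 was, at 265, 161 and 286 CPM in CON, UV and Rux. Tsc22d3 was chosen after its values were seen.

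Likeness to a member was measured as Pearson's r of log2(CPM + 5), centred within each class, over 30 points (10 classes in 3 libraries). These points share libraries and depth, so r is a description over 3244 genes with at least 20 CPM in every class. Dbp itself lay under this bound, at 2.15 to 2.64 CPM in HF-like cells and with 2 to 5 UMIs in MC-like cells. Arntl lay under it as well, at 22.6, 16.1 and 16.9 CPM in MYE-like cells over CON, UV and Rux, and with 3 to 10 UMIs in MC-like cells. So did Per3, at 2.06, 3.91 and 2.48 CPM in MYE-like cells, and Cry2, at 23.7, 17.1 and 13.9 CPM there. Counting noise there enters each r of these genes. The genes most like Per1 were Nr4a1 (r = 0.87), Rhob (0.70), Arl5b (0.70), Dusp1 (0.69) and Ccnl2 (0.68). Those most like Arntl were Setd7 (0.81), Zfand3 (0.75), Slc49a4 (0.75), Inpp5a (0.73) and Akap13 (0.73). Those most like Dbp were Hmgn1 (0.83), Ift20 (0.82), Malsu1 (0.81), Atg101 (0.78) and Rchy1 (0.78), and those most opposite to it were Gpr107 (−0.85), Acbd3 (−0.82), Map4k4 (−0.80), Emsy (−0.79) and Lsm14a (−0.79). Among the members, Per3 was the most like Dbp (0.60) and Cry2 the most like Per1 (0.67), while Arntl and Dbp had r = −0.24.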

How the data were processed

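Dorsal skin from CON, UV and Rux was analysed as 1 library each. The authors deposited unnormalized UMI counts for each gene in each cell from Cell Ranger on mm10 (version 6.1.2 per the labels, 7.0.0 per the file headers).

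Cells were kept from 200 detected genes and up to 10% mitochondrial UMIs, and the highest Scrublet scores (scanpy 1.11.5, Python 3.11.15) were removed at 0.8% of cells per 1000 cells, which took out 1269, 1128 and 923 cells. The median depth of kept cells was 7530, 7621 and 9451 UMIs. Seurat 5.3.0 in R 4.3.3 clustered all cells on 2000 variable genes without clock genes, 30 principal components and a resolution of 1.5, and the FB-like cells again on 20 components at 0.5. Of 47 clusters 9 stayed unnamed, the Ccl21a cluster among them. They held 29.3%, 20.9% and 13.4% of the kept cells in CON, UV and Rux.

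UMIs were summed per class and library. Ratios of CPM took 0.5 UMI added to each sum and exact conditional binomial intervals, computed in scipy 1.17.1 (pandas 2.3.3, numpy 2.4.6), and levels took exact Poisson intervals. Figures were drawn with matplotlib 3.10.9. The ratio and its interval were run on Poisson counts simulated at the depths of the FB-like sums. The interval assumes such counts, so this run could not test spread between mice or library preparations. The alternatives were other filters on cells, doublets kept, another resolution, clock genes kept in clustering, equal weight per cell, subclusters weighted as in CON, other scalings, and other bounds. Leaving out the subcluster led by Socs3 and Egr1, adding a cluster of few UMIs per cell to the FB-like cells, and weighting only the subclusters of at least 50 cells were chosen after seeing the data.

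The named genes were all 10 members in every class, the clock-related genes past 1.5-fold in FB-like cells, the 3 largest ratios of the immediate-early and of the glucocorticoid list in UV over CON and in Rux over UV, and the 5 genes most like Dbp, Arntl and Per1 and the 5 most opposite to Dbp. The members and lists were chosen with earlier results of these data known. No test across samples was made, because cells are not replicates.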

Additional observations from a re-analysis of the deposited data

Results flagged for a closer look

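Bhlhe41 and Nfil3 passed the 1.5-fold rule in opposite directions in FB-like and KB-like cells in UV over CON. For Bhlhe41 the log2 ratio was −1.04 in FB-like and 1.25 in KB-like cells, 2.29 apart. For Nfil3 it was −0.99 and 0.69, 1.68 apart. Bhlhe41 in KB-like cells stood at 8.98 CPM in CON and 21.4 CPM in UV. Both classes held their clusters or subclusters in different shares in each library, and the part of these shares was not tested. With 1 library per condition the difference between the classes was not tested. No group held enough samples to look for a sample that stands apart.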

How the results depend on the processing

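Of 360 alternative values for single members in FB-like cells, 286 lay within the counting interval of the value reported, 74 moved and 0 of the ratios past 1.5-fold changed sign. Of the ratios under 1.5-fold, 8 changed sign under at least 1 alternative. Weighting fibroblast subclusters as in CON had the widest effect. It left 0 members lower in UV over CON and 0 in Rux over CON, made 4 higher in Rux over UV, and gave −0.79 for the difference of UV from CON in Dbp over Arntl and −0.38 in the 12-gene contrast. Among the 8, Per1 in Rux over CON went from −0.27 to 0.16, Nr1d1 in Rux over UV from 0.20 to −0.02, Arntl in Rux over UV from −0.10 to 0.11 and Per2 in UV over CON from −0.09 to 0.26. The others were Nr1d2 and Per3 in Rux over UV and, under other alternatives, Clock and Cry1 in UV over CON. The subcluster led by Socs3 and Egr1 took 33.6% of the weight with 20 cells in Rux. With the 9 subclusters of at least 50 cells alone, 1 member was lower in UV over CON and 0 in Rux over CON, UV minus CON was −0.70 in Dbp over Arntl and −0.49 in the 12-gene contrast, and Rux minus UV was −0.59 in Dbp over Arntl.

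A 2-fold bound left 0 members lower in UV over CON, 0 higher in Rux over UV, and 1 higher and 0 lower in Rux over CON. Equal weight per cell left 1 higher in Rux over CON, and the strict filter made 2 lower there. For Dbp over Arntl in FB-like cells, UV minus CON was −1.99 with equal weight per cell, −2.32 with the strict filter and −1.71 without the subcluster led by Socs3 and Egr1, where Rux minus UV was −0.13. In KB-like cells UV minus CON was −0.38 at up to 20% mitochondrial UMIs, 0.25 at a resolution of 0.8, −0.63 with equal weight per cell and 0.54 without doublet removal. There Rux minus UV was −1.31 without doublet removal and −0.64 with the strict filter. Over all retained cells equal weight per cell gave −1.12 for UV minus CON and −0.56 for Rux minus UV. The causes were not tested.

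No paired analysis was possible because each condition had 1 library, which also left no replicate to leave out. Depth limits the MC-like, SCH-like, LYM-like and MYE-like classes, where Dbp had 2 to 36 UMIs in a library.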
